A study of Arabidopsis thaliana with 10 samples.

Results

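Seedlings of the Arabidopsis thaliana ecotype Col were compared after 24 h at 4 °C and at room temperature. The comparison used 4 of the 10 arrays of a study of ecotypes under cold: the 2 titled for Col at room temperature and the 2 titled for Col after 24 h. It ran over all 22746 probe sets that are not controls. The other 6 arrays hold the ecotype C24, with 2 at room temperature, 2 after 3 h and 2 after 24 h at 4 °C. They entered the fit for the estimate of spread, and C24 at room temperature and 24 h is set beside Col at the end. Both Col groups carried the same genotype label, Col, the ecotype of the reference genome, and no mutation, transgene or chemical agent is named. Plants of all groups grew on plates in a chamber at 23/18 °C. Sample labels name leaf tissue at 20 days, but the design text describes 14-day seedlings with 2 biological replicates a condition. Neither says whether replicates were planted separately, how many plants were pooled or at what hour plants were harvested, so the p-values measure the spread between these arrays.

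Arabidopsis tolerates freezing better after a period of low but non-freezing temperature, a process called cold acclimation. Calcium signals and transcription factors act early, and genes of the COR and LEA classes then make proteins that protect membranes and enzymes when cells lose water. Sugars accumulate, growth slows, and the circadian clock gates many of the responding genes.

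Every level below is a deposited RMA signal on the log2 scale, and every change is the difference of mean log2 signals, cold minus room temperature, ± its SE from limma (n = 2 arrays a group). A probe set is called when its Benjamini-Hochberg adjusted p over all 22746 is below 0.05, and "rose" and "fell" are used only of called genes. A call is said to have held when it stood, in the same direction, in each of the 4 fits that left out 1 Col array. A signal below the lower quartile of its array, at about 4.51, may be no more than background and is said to lie in the background range. Named genes have a probe set annotated with exactly 1 gene. There are 13513 such probe sets, of which 13436 matched a RefSeq gene.

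The SD between replicates had a median over probe sets of 0.0616 at room temperature and 0.0695 after cold. The difference of 3' and 5' GAPDH control signals, a measure of RNA integrity, lay between 0.0947 and 0.314 on the 4 Col arrays. The leaf label was checked against markers. The leaf mesophyll genes RCA (Rubisco activase), LHCB4.1, LHCB4.2, PSAN, SBPASE and PRK had signals between 11.995 and 14.13 on every Col array. PYK10, a beta-glucosidase abundant in roots, was also bright at 12.70 and 12.92 at room temperature and 12.22 and 12.29 after cold, and the root hair expansins EXPA7 and EXPA18 lay between 5.94 and 7.14. Of 8 pollen, tapetum, egg cell and seed markers, 6 lay in the background range in both groups, among them the pollen and tapetum regulator AMS. The bulk signals do not tell apart fewer cells of a type from less RNA per cell.

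One library stood apart for the genes of the plastid genome, which are transcribed inside the chloroplast by its own polymerases. The 10 largest SDs within a Col group among named genes all belonged to plastid genes: atpI, ycf3, ccsA, rpl16, rpoC2, psbN, petA, rbcL, rpl20 and atpF. For atpI, an ATP synthase subunit, the signals were 7.42 and 7.38 at room temperature and 5.35 and 7.56 after cold, and for ccsA, a cytochrome assembly factor, they were 11.82 and 11.95 at room temperature and 10.56 and 11.98 after cold. In both genes replicate 1 after cold lay far below the other 3 arrays. Of the 69 plastid-encoded probe sets, 62 were lower on replicate 1 than on replicate 2 after cold. The median difference between these arrays was -0.70, against 0.08 between the room temperature arrays. Over all 22746 probe sets the median difference between the cold arrays was -0.001. Results for plastid genes are therefore given with and without this library.

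**Figure D1:**
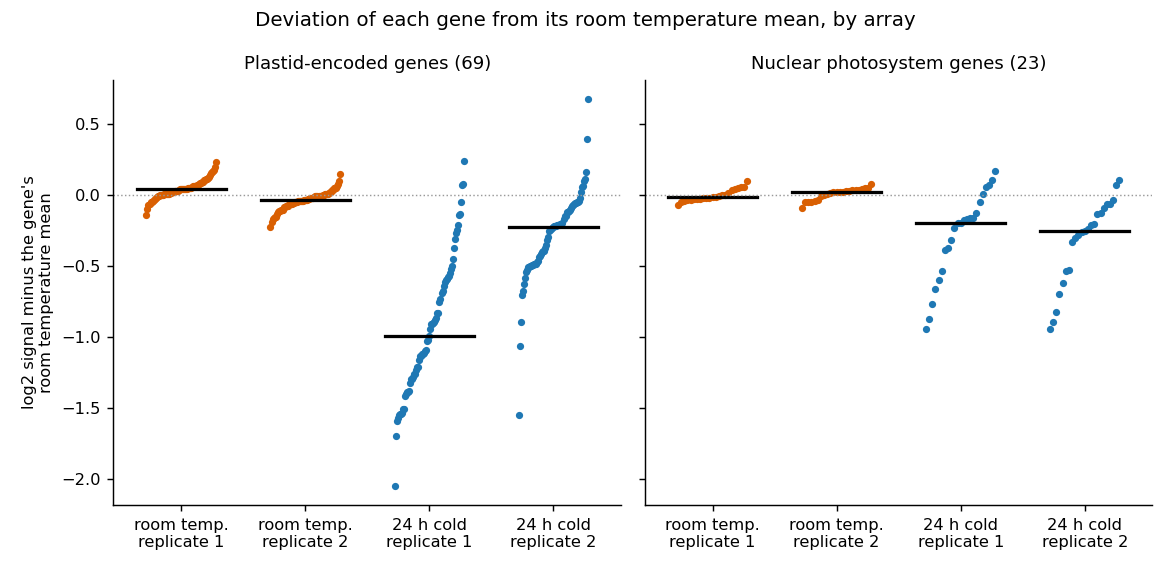
Each point is 1 gene on 1 array, ranked within the array. The vertical axis is its log2 signal minus its own room temperature mean, and black bars are medians over genes. Plastid-encoded genes (left, 69) spread furthest on cold replicate 1, with a median of -0.99, against -0.23 on cold replicate 2. Nuclear photosystem genes (right, 23) had medians of -0.20 and -0.25.

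Of the 22746 probe sets, 49.1% were called, 23.2% higher after cold and 25.9% lower. A change of at least 2-fold, that is a log2 difference of at least 1, was called for 8.38%, with 4.24% higher and 4.14% lower. The arrays of both groups did not overlap for 72.1%. The median change over all probe sets was 0.0079, so the distribution was centred near 0. Large rises outnumbered large falls: 187 called probe sets rose by more than 2 on the log2 scale and 124 fell by more than 2, and for a size above 3 the counts were 52 and 18. Calls depended on the room temperature level. From 8.22 to 14.48, 2404 of 5687 probe sets were called lower and 1436 higher. From 2.95 to 4.5, 197 of 5687 were called lower and 512 higher. The shares of all probe sets given beside groups below are not matched for level.

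Among named genes COR27 (AT5G42900), a cold-induced gene whose protein acts in the clock and in light signalling, had the largest rise. Its signals were 3.70 and 3.96 at room temperature and 10.93 and 11.02 after cold, so it went from the background range to among the bright genes. Counted from the lower quartile of the room temperature arrays, the rise was at least 88.6-fold. AT5G62360 had signals of 5.83 and 6.08 at room temperature and 11.87 and 11.82 after cold, a rise of 5.89 ± 0.09 (adjusted p = 4.7e-12). AT4G33980 had 4.64 and 4.82 at room temperature and 10.18 and 10.15 after cold, and rose by 5.43 ± 0.08 (adjusted p = 5.09e-12). The groups were far apart in each case, and replicates lay close together. AT1G16850 (+5.34), AT3G55580 (+5.10) and AT1G51090 (+4.65) came next. PDF2.1 (AT2G02120), a small cysteine-rich protein of the plant defensin family, had signals of 7.32 and 7.21 at room temperature and 11.58 and 11.44 after cold and rose by 4.25 ± 0.10.

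Of the 25 largest rises, 6 belong to genes with a symbol and 19 are known here by locus code only. The symbols are COR27, PDF2.1, COR15B, LEA4-5, XTH20, a xyloglucan transferase of the cell wall, and EXLA1, an expansin-like protein. The remaining locus codes ran from AT2G38465 (+4.21) through AT4G30830 (+3.88), AT1G68500 (+3.81) and AT3G15450 (+3.73) to AT1G07050 (+2.99). Between these lay AT2G23910, AT2G32190, AT2G24560, AT1G11210, AT1G53035, AT4G01870, AT2G22590, AT2G43620 and AT1G76590, with rises from 3.01 to 3.47. SEs of the 25 lay between 0.07 and 0.14, and adjusted p-values between 3.66e-12 and 1.01e-08. In 5 of the 25 the room temperature level lay in the background range: COR27, AT2G38465 (at least 16.2-fold higher), AT4G30830 (at least 8.02-fold), AT2G24560 (at least 6.71-fold) and AT1G07050 (at least 6.57-fold).

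AT1G13650 led the falls, from 9.43 and 9.52 at room temperature to 4.45 and 4.397 after cold, in the background range, and was at least 31.3-fold lower. The expansin EXPA8 (AT2G40610), which loosens cell walls during growth, had 10.11 and 10.21 at room temperature and 5.49 and 6.298 after cold, a fall of 4.26 ± 0.20 (adjusted p = 1.96e-08). Its cold replicates differed by more than those of any other leading gene, yet both lay far below the room temperature arrays. DFR (AT5G42800), dihydroflavonol reductase of anthocyanin synthesis, had 10.58 and 10.48 at room temperature and 6.49 and 6.23 after cold (-4.17 ± 0.09, adjusted p = 7.61e-11). The beta-expansin EXPB1 (AT2G20750) had 8.46 and 8.64 at room temperature and 4.75 and 4.70 after cold (-3.82 ± 0.08, adjusted p = 7.86e-11). GH9B13 (AT4G02290), an endoglucanase of the cell wall, changed by -3.26, the jacalin-related lectin JAL23 by -3.17 and the glucosidase family member BGLU40 (AT1G26560) by -2.71. The other 18 are locus codes, led by AT1G52000 (at least 10.7-fold lower), AT1G67750 (-3.30), AT4G15390 (-3.22) and AT1G14120 (-3.17). AT1G51400 had the brightest starting level among the falls, with 13.16 and 12.99 at room temperature and 10.20 and 10.21 after cold. The remaining 13, AT2G34620, AT4G33660, AT5G47980, AT3G28270, AT5G22555, AT5G57785, AT3G28510, AT2G30670, AT5G37990, AT2G18980, AT5G16030, AT5G38020 and AT1G29020, changed by -3.01 to -2.53. In 4 of the 25 the cold level lay in the background range, with JAL23 at least 6.3-fold and AT2G30670 at least 5.62-fold lower.

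**Figure D2:**
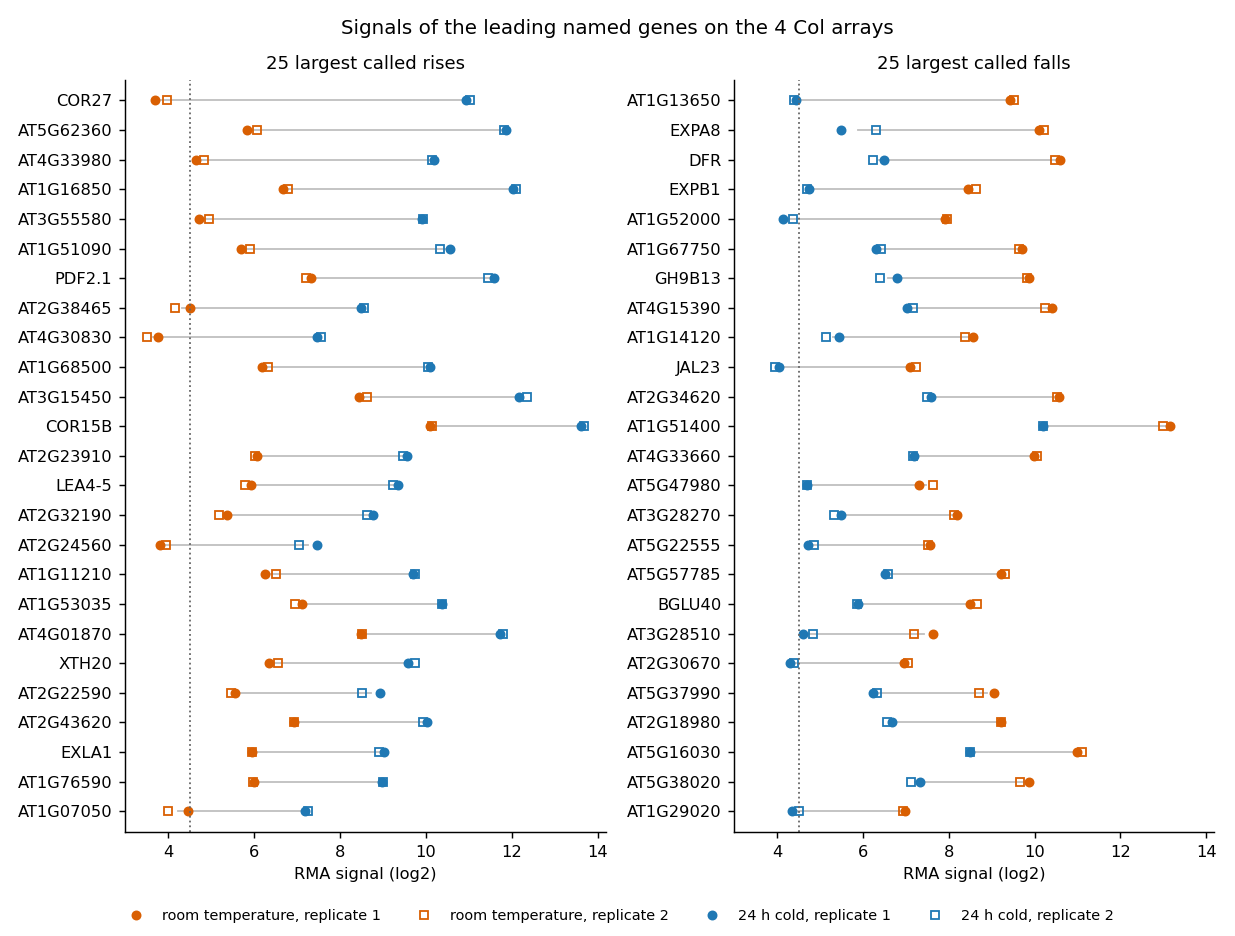
Signals of the 25 largest called rises (left) and falls (right) among named genes. The horizontal axis is the RMA signal (log2); orange marks room temperature and blue 24 h of cold, filled circles replicate 1 and open squares replicate 2, and grey lines join group means. The dotted line is the mean lower quartile of the 4 arrays. Genes were taken only where the arrays of both groups did not overlap, so the lack of overlap between orange and blue comes from the choice.

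Genes that protect cells from water loss rose to some of the brightest signals on the arrays. The chloroplast stroma protein COR15A (AT2G42540) had 11.46 and 11.56 at room temperature and 14.08 and 14.12 after cold (+2.59 ± 0.08), and its neighbour and close relative COR15B (AT2G42530) had 10.09 and 10.13 at room temperature and 13.62 and 13.68 after cold (+3.54 ± 0.07). The dehydrins COR47 (AT1G20440) and LTI30 (AT3G50970) had 11.52 and 11.44 at room temperature and 14.29 and 14.35 after cold, and 11.20 and 11.25 at room temperature and 14.07 and 14.18 after cold. All 4 started above 10 and ended above 13.6, without overlap between groups, as was so for 72.1% of all probe sets. The lipocalin TIL (AT5G58070), which protects membranes from oxidation, had 11.15 and 11.19 at room temperature and 13.12 and 13.11 after cold (+1.95 ± 0.08). LEA4-5 (AT5G06760), a group 4 LEA protein, started dim and rose from 5.93 and 5.79 to 9.34 and 9.24. DI21 (AT4G15910), a drought-induced gene, had 8.41 and 8.91 at room temperature and 10.29 and 10.33 after cold, with room temperature replicates that differed by more than the others here. SRC2, a C2 domain protein of the cold response, rose by 0.72 ± 0.07.

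In the whole group of 13 protective genes, 8 rose, all of which held, against 23.2% of all probe sets called higher. The group median was 1.65. HVA22C (-0.30) and DI19 (-0.26) fell, but neither held: without Col 24 h replicate 2 their adjusted p-values were 0.181 and 0.113. The 3 remaining genes, LEA, LEA18 and AtLEA4-1, lay in the background range in both groups. COR15A and COR15B are similar in sequence, and how far their probes tell them apart was not tested.

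Calcium decoding and early transcription factors gave a few large rises beside many small or uncalled changes. The calmodulin-like calcium sensor CML37 (AT5G42380) had 3.33 and 3.25 at room temperature and 5.71 and 5.81 after cold, at least 2.38-fold higher. Its relative CML38 (AT1G76650) had 4.92 and 4.91 at room temperature and 6.598 and 7.42 after cold (+2.09 ± 0.19, adjusted p = 3.64e-06), with cold replicates apart from each other but both above room temperature. STZ (AT1G27730), a zinc finger repressor of the abiotic stress response, had 6.96 and 6.90 at room temperature and 9.36 and 9.18 after cold (+2.34 ± 0.09). CML43 fell (-0.67 ± 0.11), CML41 rose by 0.37 but missed the threshold without Col 24 h replicate 2 (adjusted p = 0.085), and CML23, CML30 and CML42 were not called (-0.10 to -0.18). Of 10 AP2/ERF factors, the family of the cold regulators, 1 rose and 2 fell, against 23.2% of all probe sets called higher and 25.9% lower. They were SHN3 (+0.74), a regulator of wax and cutin, LEP (-0.54) and the flowering repressor SNZ (-1.06). The rest of this family gave changes between -0.12 and 0.21, with HRD, PUCHI and BBM in the background range. A second AP2/ERF call, a rise, appeared without Col room temperature replicate 2 and without Col 24 h replicate 1. Of 6 WRKY factors 3 rose, led by WRKY6 (+0.93 ± 0.10), a regulator of senescence and phosphate responses. Without Col room temperature replicate 1 it was the 1 rise left, as WRKY20 (+0.34) and WRKY22 (+0.29) missed the threshold.

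Of 8 light and clock genes 4 rose and none fell, against 23.2% and 25.9% of all probe sets. GI (AT1G22770), a clock-associated protein of the flowering pathway, had 8.29 and 8.11 at room temperature and 10.45 and 10.47 after cold (+2.26 ± 0.08, adjusted p = 2.43e-09). The bZIP factor HYH (AT3G17609), a relative of HY5 that promotes light responses, had 6.95 and 6.97 at room temperature and 8.48 and 8.39 after cold (+1.47 ± 0.12). TIC, another clock regulator, rose by 0.65 ± 0.08. With COR27 these made the 4 rises, all of which held, and XCT, FIO1, FHL and SHB1 were not called (-0.02 to 0.08). Several genes of this group follow the time of day, and the harvest time of the groups is not given, so its part in these values was not tested. Among 14 bZIP factors, HYH being one of them, 6 rose (5 held) and 3 fell (3 held). bZIP44, a small factor of the S1 class, rose by 1.03 ± 0.07, bZIP19, a zinc deficiency regulator, by 0.68 ± 0.08, and BZIP61 (AT3G58120) fell from 7.15 and 7.4 to 5.72 and 5.82.

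Genes of the machinery that makes ribosomal RNA rose almost throughout, against 23.2% of all probe sets called higher. NRPA1 (AT3G57660), the largest subunit of RNA polymerase I, had 6.45 and 6.29 at room temperature and 7.67 and 7.82 after cold (+1.37 ± 0.09), and its partner subunit NRPA2 had 6.87 and 7.19 at room temperature and 7.96 and 8.11 after cold (+1.00 ± 0.10). The pre-rRNA processing factor YAO (AT4G05410) had 7.57 and 7.55 at room temperature and 8.82 and 8.74 after cold (+1.22 ± 0.07). The groups did not overlap for any of these genes, as was so for 72.1% of all probe sets. The DEAD-box helicase PRH75 (+1.097), IMP4 (+1.04), the rRNA dimethylases DIM1A (+0.90) and DIM1B (+0.44) and the exosome subunits RRP41 (+0.34) and RRP41L (+0.60) rose too. In all, 10 of 11 genes rose and each held, with a median of 0.90. The polymerase III subunits split, NRPC2 rising by 0.43 ± 0.07 and NRPC1 changing by -0.27 ± 0.11. NRPC1 was not called with all arrays, and without Col 24 h replicate 2 it was called lower.

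Subunits of RNA polymerases II, IV and V gave 6 rises of 8 (5 held) and no fall. NRPE7 (AT4G14660), a subunit of the polymerase of RNA-directed DNA methylation, rose by 1.102 ± 0.09, and NRPB7 by 0.94 ± 0.07. NRPB6A rose by 0.55 ± 0.08 while its paralog NRPB6B was not called (-0.01 ± 0.11), and NRPB9B rose by 0.55 ± 0.09 while NRPB9A was not called (-0.18 ± 0.10); the differences between paralogs were not tested. For factors of splicing, export and decay of mRNA, changes were smaller: 12 of 26 rose (7 held) and 3 fell (2 held), with a median of 0.21. The glycine-rich RNA-binding protein AtRZ-1c rose by 0.67 ± 0.08, the splicing-associated ligase MAC3A by 0.61 ± 0.08 and the Sm-like protein LSM6A by 0.56 ± 0.07. UBA1A (-0.79 ± 0.08), which binds U-rich RNA, and LSM3A (-0.58 ± 0.08) fell. Over all probe sets 23.2% were called higher and 25.9% lower. Among 13 genes grouped here under organelle RNA editing and processing, OTP84 (AT3G57430) rose from 5.38 and 5.42 to 6.47 and 6.66. OTP81 (AT2G29760) rose from 5.82 and 5.70 to 6.82 and 6.85. These were 2 of 4 rises, and the only rises of this group left without Col room temperature replicate 1.

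Of 17 chaperones 9 rose (8 held) and 3 fell (3 held), against 23.2% of all probe sets called higher and 25.9% lower, with a median of 0.44. The HSP70 nucleotide exchange factor Fes1A (AT3G09350) had 6.61 and 6.73 at room temperature and 8.11 and 8.07 after cold (+1.42 ± 0.07), and Hsp70-2 (AT5G02490) had 7.45 and 7.44 at room temperature and 8.38 and 8.64 after cold (+1.06 ± 0.10). The HSP70-HSP90 organising protein Hop2 (+0.85), the cyclophilin SQN (+0.78) and the NudC-like BOB1 (+0.58) rose. A further probe set of SQN was not called (0.09). The plastid chaperonin subunit Cpn60beta2 fell from 10.72 and 10.75 to 9.76 and 9.93. In the endoplasmic reticulum the response was mixed, with 5 of 14 higher and 6 lower. The unfolded protein response factors BZIP60 (+0.76 ± 0.08) and BZIP17 (+0.51 ± 0.07) rose, and so did the derlin DER2.2 (+0.81 ± 0.09). The co-chaperones ATERDJ3B (-0.73 ± 0.07) and ATERDJ2B (-0.70 ± 0.11), the derlin DER2.1 (-0.69 ± 0.09) and the lectin OS9 of protein degradation (-0.70 ± 0.10) fell. With arrays centred on their medians this group counted 6 in each direction.

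Sugar transport shifted between family members. SWEET1 (AT1G21460), a glucose carrier of the plasma membrane, had 8.36 and 8.40 at room temperature and 10.04 and 9.93 after cold (+1.61 ± 0.08), and the vacuolar carrier SWEET2 had 7.08 and 7.02 at room temperature and 8.12 and 7.97 after cold (+0.99 ± 0.08). SWEET17 (AT4G15920), a fructose carrier of the vacuole, had 8.54 and 8.58 at room temperature and 7.15 and 7.45 after cold (-1.25 ± 0.14). SWEET16, its closest vacuolar relative, fell by 0.68. In each of these 4 genes the groups did not overlap, as was so for 72.1% of all probe sets. Of 15 SWEET genes 6 rose (4 held) and 4 fell (3 held). Over all probe sets 23.2% were called higher and 25.9% lower, and the SWEET falls were near that share. The vacuolar sugar loader TMT2 rose by 0.96 ± 0.07, while TMT1 fell (-0.34 ± 0.07). The sucrose phosphate synthase ATSPS4F rose by 0.73 ± 0.07. The carriers SFP1 (-1.05 ± 0.08) and SFP2 (-1.28 ± 0.09) fell, and cwINV6 (AT5G11920), a fructan hydrolase of the invertase family, had 7.2 and 7.44 at room temperature and 5.25 and 5.54 after cold (-1.92 ± 0.11).

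In starch metabolism, the branching enzyme SBE2.2 (-0.85 ± 0.07), the large pyrophosphorylase subunits APL3 (-0.97 ± 0.15) and APL4 (-0.42 ± 0.09) and the starch-related QQS (-0.87 ± 0.09) fell. PWD, the dikinase that phosphorylates starch for breakdown, gave opposite calls on its probe sets: +1.29 ± 0.07 on one and -0.47 on the other, so its direction is unsettled. The amylase AMY1 rose by 0.32 from the background range, but not without Col 24 h replicate 2 (adjusted p = 0.0504). Of 8 genes of branched-chain amino acid breakdown and its electron transfer 5 fell, each of which held, and none rose. They were the methylcrotonyl-CoA carboxylase subunits MCCA (-0.82 ± 0.07) and MCCB (-0.86 ± 0.07), D2HGDH (-0.68 ± 0.08), ETFALPHA (-0.40 ± 0.08) and ETFQO (-0.33 ± 0.07). Of 5 alternative NAD(P)H dehydrogenases, which bypass the proton-pumping respiratory complex, NDB2 (+0.67 ± 0.09), NDB4 (+0.42 ± 0.09) and NDC1 (+0.38 ± 0.08) rose. Of 17 genes of the citric acid cycle and citrate use 2 rose and 4 fell, none by as much as 2-fold, and the falls were near the 25.9% of all probe sets. Of these rises SDH1-1 (+0.18) was lost in every fit with 1 Col array left out. Among 10 autophagy genes 4 rose and 2 fell, against 23.2% of all probe sets called higher and 25.9% lower. ATG8E (+0.62 ± 0.10) and ATG8F (-0.75 ± 0.07), members of the family that coats autophagosomes, moved apart.

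Among nuclear genes of photosynthesis 12 of 23 fell, each by less than 2-fold, and none rose. The photosystem II antenna protein LHCB4.2 had 13.35 and 13.26 at room temperature and 12.43 and 12.36 after cold (-0.91 ± 0.07, adjusted p = 1.15e-06), LHCB4.3 had 10.02 and 10.06 at room temperature and 9.27 and 9.21 after cold (-0.80 ± 0.07), and LHCB4.1 changed least of the 3 (-0.25 ± 0.07). The cyclic electron flow protein PGRL1B (-0.92 ± 0.08), the thylakoid anchor TROL (-0.65 ± 0.07), the NDH subunit NdhN (-0.60 ± 0.08) and PSB27 (-0.58 ± 0.08) fell. Of the 12 falls 9 held, and the group median was -0.21. Over all probe sets 25.9% were called lower, but that count depended on signal. The group's median signals were 10.69 and 10.59 on the room temperature arrays. Among the 5687 probe sets with room temperature levels from 8.22 to 14.48, 2404 were called lower and 1436 higher, with a median change of -0.12. How far the group's falls go with its signal level was not tested. LHCB4.1, LPA19 and NdhS were the calls that did not hold. All 4 measured genes of carbon fixation and photorespiration fell and held. The peroxisomal hydroxypyruvate reductase HPR (AT1G68010) went from 13.06 and 13.12 to 11.95 and 11.80, and PRK (-0.46 ± 0.07), RCA (-0.42 ± 0.07) and SBPASE (-0.31 ± 0.07) changed by less than 2-fold.

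Chlorophyll synthesis split. The uroporphyrinogen decarboxylase HEME1 (AT3G14930) had 10.03 and 10.06 at room temperature and 8.74 and 8.93 after cold (-1.21 ± 0.08), and CHLM, the magnesium protoporphyrin methyltransferase, had 11.94 and 11.98 at room temperature and 10.97 and 11.02 after cold (-0.96 ± 0.07). The protochlorophyllide reductase PORB rose from 11.84 and 11.85 to 12.21 and 12.28 (+0.40 ± 0.07). The magnesium chelatase subunit CHLI2 rose by 0.31 ± 0.08. Of 14 genes 6 fell (6 held) and 3 rose (2 held). The shares of all probe sets were 25.9% lower and 23.2% higher, and the share of rises here was near the second. Among the 5687 probe sets with room temperature levels from 8.22 to 14.48, 2404 were called lower and 1436 higher. How far the falls of these chlorophyll genes go with their signal level was not tested.

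Plastid-encoded genes were called lower in 31 of 69 cases and higher in 1, petN (+0.45), against 25.9% and 23.2% of all probe sets. Among the 5687 probe sets with room temperature levels from 8.22 to 14.48, 2404 were called lower and 1436 higher. The plastid share called lower was near that of these probe sets, and how far it goes with signal level was not tested. The plastid genes had median signals of 9.67 and 9.62 on the room temperature arrays and a median change of -0.65. Leaving out Col 24 h replicate 1 reduced the falls to 12 and the median to -0.23, and leaving out Col 24 h replicate 2 raised the falls to 57 with a median of -0.99. Leaving out either room temperature array gave 16 falls, with medians of -0.58 and -0.66, and a trended robust prior on the variance gave 18. The rise of petN was lost without Col 24 h replicate 2 (adjusted p = 0.336). In 11 genes the fall held in each fit. The small ribosomal protein gene rps18 had 8.77 and 8.69 at room temperature and 7.14 and 7.18 after cold (-1.57 ± 0.08, adjusted p = 3.37e-08), the large ribosomal protein gene rpl33 10.33 and 10.34 at room temperature and 9.25 and 9.44 after cold (-0.99 ± 0.08), and the photosystem I gene psaJ 9.60 and 9.48 at room temperature and 8.63 and 8.48 after cold (-0.99 ± 0.09). For these 3 genes both cold arrays lay below both room temperature arrays and close to each other. The psb genes psbE (-0.48 ± 0.09), psbI (-0.59 ± 0.09) and psbK (-0.58 ± 0.10) of photosystem II also held, as did ndhA (-0.49 ± 0.08), ndhD (-0.85 ± 0.13), petB (-0.65 ± 0.14), rpoA (-0.71 ± 0.16) and rpl36 (-0.74 ± 0.17). Signals of rbcL, the large subunit of Rubisco, were 10.81 and 10.56 at room temperature and 9.93 and 11.08 after cold, with the cold replicates on either side of the room temperature arrays. On cold replicate 1, 66 of 69 genes were below both room temperature arrays, and on cold replicate 2, 55. Over all 22746 probe sets the same counts were 9811 and 9832.

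In the flavonoid pathway, 3 of 4 late anthocyanin genes fell, and 3 of 5 genes grouped here under flavonol glycosylation rose. Over all probe sets 25.9% were called lower and 23.2% higher. Beside DFR, the anthocyanin glycosyltransferase UF3GT (AT5G54060) fell from 8.85 and 9.06 to 6.46 and 6.55 (-2.45 ± 0.10) and the malonyltransferase AT5MAT (AT3G29590) from 6.75 and 6.77 to 5.23 and 5.39 (-1.45 ± 0.08). BAN, an enzyme of seed coat tannins, lay in the background range. Of the genes grouped under flavonol glycosylation, the arabinosyltransferase UGT78D3 (AT5G17030) rose from the background range. It had 4.11 and 3.896 at room temperature and 5.94 and 5.86 after cold, at least 2.62-fold higher. UGT78D2, a glucosyltransferase, rose by 0.76 ± 0.07, and UGT73B1 by 0.79 ± 0.09. The rhamnosyltransferase UGT78D1 (-0.13 ± 0.08) and the chalcone isomerase-like CHIL (+0.20 ± 0.08) were not called.

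Genes of ER bodies, compartments that store beta-glucosidases against herbivores, fell in 7 of 7 cases, and each held. The 7 include jacalin lectins associated with the bodies. For this count and that of the glucosinolate genes below, the share of all probe sets called lower was 25.9%. NAI2 (AT3G15950), which forms the bodies, had 9.82 and 9.88 at room temperature and 7.64 and 7.78 after cold (-2.14 ± 0.10), and the lectin JAL22 (AT2G39310) had 10.29 and 10.30 at room temperature and 8.10 and 8.22 after cold (-2.14 ± 0.08). Their regulator NAI1 (-0.98 ± 0.10), the lectins JAL33 (-1.02 ± 0.07) and JAL34 (-1.16 ± 0.07) and PYK10 (-0.56 ± 0.08) fell less, for a group median of -1.16. ER bodies are abundant in roots, and the 3 root markers, PYK10, EXPA7 (-0.53 ± 0.15) and EXPA18 (-1.03 ± 0.09), fell as well, EXPA7 without holding (adjusted p = 0.13 without Col room temperature replicate 2). Whether the share of root RNA differed between groups was not tested. Among glucosinolate genes 5 of 6 fell, each of which held: AOP1 (-1.35 ± 0.12), the glucosyltransferase UGT74B1 (-1.34 ± 0.07), the transporters GTR2 (-0.99 ± 0.09) and GTR1 (-0.25 ± 0.07), and BCAT4 (-0.98 ± 0.08), an aminotransferase of methionine chain elongation. AOP3 rose from the background range by 0.28, and this call was lost in every fit with 1 Col array left out.

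**Figure D3:**
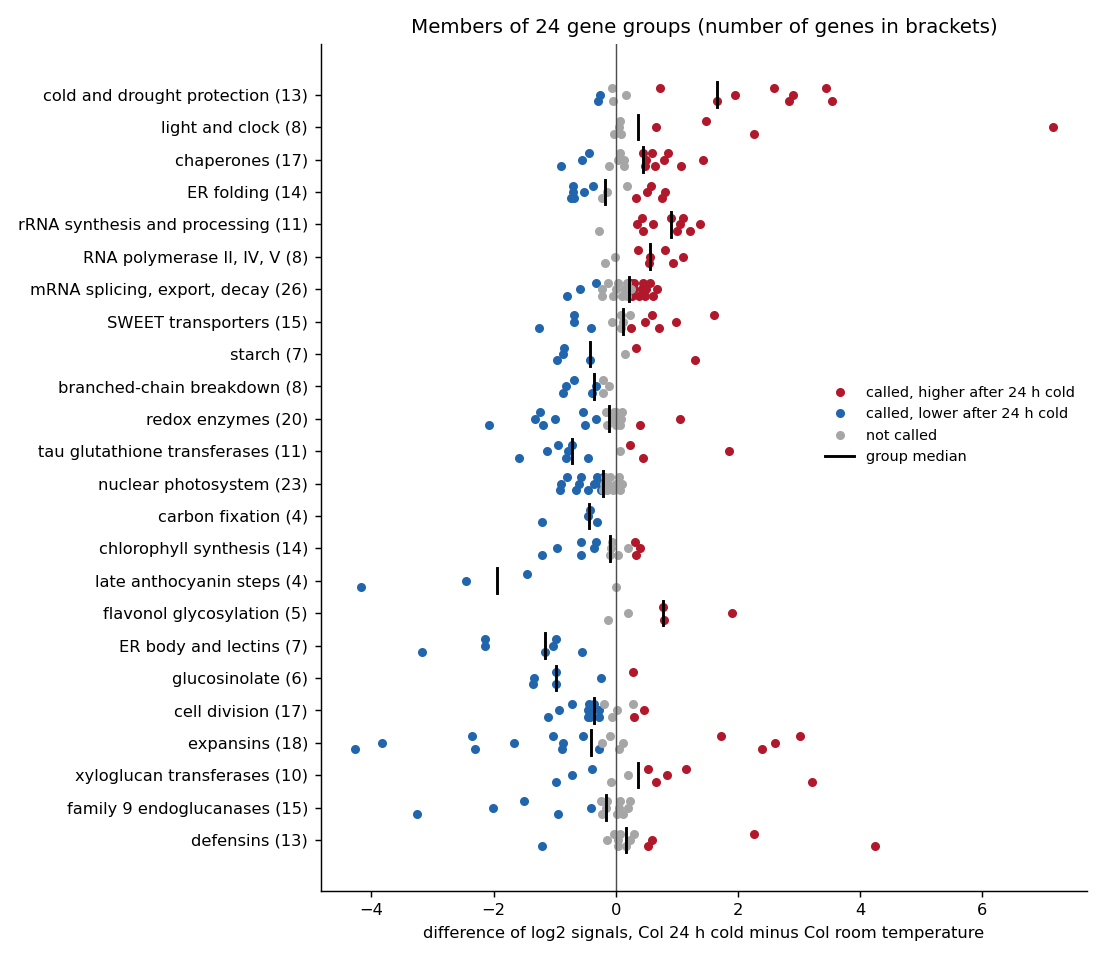
Each point is 1 gene. The horizontal axis is the difference of log2 signals, Col 24 h of cold minus room temperature; red and blue points are called higher and lower (adjusted p below 0.05), grey points are not called, and black bars are group medians. Medians run from -1.95 for late anthocyanin steps to 1.65 for cold and drought protection, and expansins reach from -4.26 to 3.01.

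Cell wall families held large changes in both directions. Of all probe sets 23.2% were called higher and 25.9% lower, and the share of expansins that rose was near the first of these. The expansin-like genes EXLA1 (AT3G45970), EXLA2 (AT4G38400) and EXLA3 (AT3G45960) rose together. EXLA1 had 5.96 and 5.94 at room temperature and 9.02 and 8.90 after cold (+3.01 ± 0.07), EXLA2 had 5.90 and 5.92 at room temperature and 8.54 and 8.48 after cold (+2.599 ± 0.08), and EXLA3 had 4.37 and 4.23 at room temperature and 6.82 and 6.57 after cold, at least 4.57-fold higher. Whether this subfamily loosens walls is not established. EXPA16 (AT3G55500) was the only alpha-expansin among the 10 measured that rose, from 4.87 and 4.83 to 6.56 and 6.59. EXPA4 (AT2G39700) fell from 10.46 and 10.51 to 8.12 and 8.25, EXPA15 (AT2G03090) from 9.93 and 10.12 to 8.38 and 8.33, and the beta-expansin EXPB3 (AT4G28250) from 10.79 and 10.64 to 8.38 and 8.33. These 3, EXPA8 and EXPB1 were all bright at room temperature. In none did the groups overlap, as was so for 72.1% of all probe sets. EXLB1 (-0.88 ± 0.10), EXPA9 (-0.87 ± 0.10) and EXPA18 (-1.03 ± 0.09) fell less, and EXPA18 and EXPA7 are the root hair markers given above, whose part in the group's result was not tested. Over 18 expansins 4 rose (4 held) and 10 fell (8 held), and EXPA7 and EXPA20 were the falls that did not hold.

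Xyloglucan transferases, which cut and rejoin wall polymers, changed in both directions. XTH20 (AT5G48070) had 6.34 and 6.55 at room temperature and 9.58 and 9.73 after cold (+3.21 ± 0.11, adjusted p = 2.57e-09), XTH18 (AT4G30280) rose by 1.14 ± 0.10 and EXGT-A3 by 0.84 ± 0.07. XTH32 fell from 9.998 and 10.001 to 9.12 and 8.91. Of 10 genes 5 rose and 3 fell, and all 8 calls held; the share of falls was near the 25.9% of all probe sets. Family 9 endoglucanases gave 5 falls of 15 (5 held), also near that share, and no rise, against 23.2% of all probe sets. Beside GH9B13, GH9C2 (AT1G64390) had 9.98 and 9.99 at room temperature and 7.95 and 8.01 after cold (-2.003 ± 0.07) and GH9B8 (AT2G32990) 8.06 and 8.20 at room temperature and 6.497 and 6.75 after cold (-1.51 ± 0.10), followed by GH9C1 (-0.95 ± 0.10) and GH9B7 (-0.40 ± 0.07). The uncalled 10 lay at 6.26 or below on every array. The TBL family, several members of which acetylate wall polysaccharides, had 11 falls and 2 rises among 22 genes. TBL36 (AT3G54260) had 9.67 and 9.70 at room temperature and 7.32 and 7.26 after cold (-2.40 ± 0.09) and TBL26 (AT4G01080) 8.499 and 8.71 at room temperature and 6.33 and 6.21 after cold (-2.33 ± 0.08), whereas TBL45 (AT2G30010) rose from 8.10 and 8.08 to 10.18 and 10.13.

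**Figure D4:**
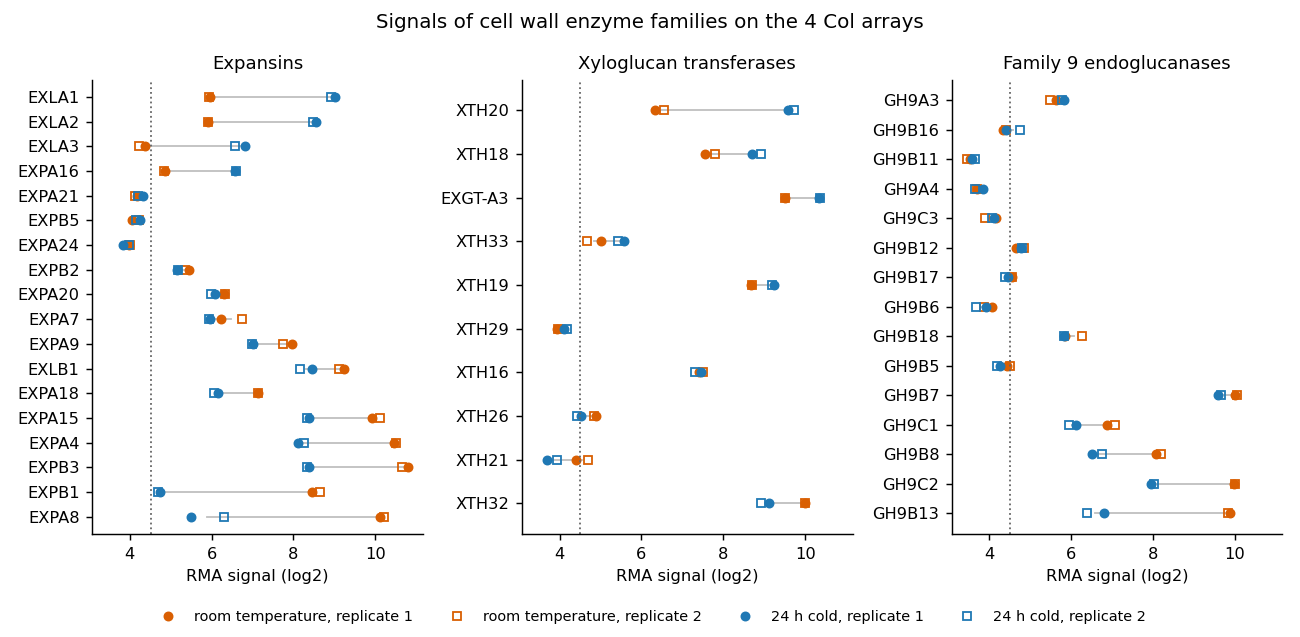
RMA signals (log2, horizontal axis) of 18 expansins, 10 xyloglucan transferases and 15 family 9 endoglucanases on the 4 Col arrays, ordered by change within each panel. Orange marks room temperature and blue 24 h of cold, filled circles replicate 1 and open squares replicate 2; the dotted line is the mean lower quartile of the arrays. EXLA1, EXLA2 and EXLA3 lie to the right in cold, and EXPA8, EXPB1, EXPB3, EXPA4 and EXPA15 to the left.

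Of 17 cell division genes 11 fell (8 held), against 25.9% of all probe sets, and 2 rose (1 held). SIM (AT5G04470), a cyclin-dependent kinase inhibitor, fell from 7.403 and 7.70 to 6.46 and 6.41, and topoisomerase II (TOPII) from 7.58 and 7.61 to 6.55 and 6.78. The spindle checkpoint gene BUB3.1 (-0.73 ± 0.07), the Aurora kinases AUR1 (-0.36 ± 0.07) and AUR2 (-0.46 ± 0.09) and the kinase partner CKS (-0.43 ± 0.07) fell. The rise that held was that of the replication protein PSF2 (+0.46 ± 0.08). Not every member that fell promotes division, as SIM restrains it. Histone genes fell in 4 of 8 cases, all of which held, led by the stress-inducible linker histone HIS1-3 (AT2G18050), with 6.89 and 6.84 at room temperature and 4.94 and 4.95 after cold (-1.92 ± 0.09). The other falls were HTB4 (-0.68 ± 0.08), HON4 (-0.63 ± 0.08) and HTB11 (-0.33 ± 0.08). Tubulins split by isoform. The beta-tubulin TUB9 (AT4G20890) had 9.60 and 9.68 at room temperature and 11.27 and 11.26 after cold (+1.62 ± 0.07), TUB5 rose by 0.91 ± 0.08 and the alpha-tubulin TUA1 by 0.81 ± 0.09, while TUB1 (-0.89 ± 0.09) and TUB6 (-0.61 ± 0.07) fell. ACT11 (AT3G12110), an actin of reproductive tissue, had 7.39 and 7.395 at room temperature and 6.01 and 5.70 after cold, above the background range in both groups.

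Hormone genes changed singly. In the auxin group of 23 genes 4 rose (3 held) and 7 fell (4 held), and the falls were 4 without Col room temperature replicate 2. These counts were near the shares of all probe sets, 23.2% higher and 25.9% lower. IAA29 (AT4G32280), a repressor induced by growth signals, rose from 4.81 and 4.83 to 6.29 and 6.31, and the conjugating enzymes GH3.9 (AT2G47750) and GH3.17 (AT1G28130) changed by -1.48 ± 0.11 and -1.12 ± 0.07. The gibberellin receptors GID1A (+0.40 ± 0.08) and GID1B (+0.40 ± 0.10) and SPY (+0.67 ± 0.08), a brake on gibberellin signalling, rose, and the F-box protein SLY1 (-0.37 ± 0.07) fell. The cytokinin response regulators RR16 (-0.97 ± 0.09) and ARR15 (-0.51 ± 0.09) fell. Jasmonate genes were called in 3 of 10 cases, with the synthesis enzyme OPCL1 at -0.75 ± 0.11 and the defensin PDF1.2 at +0.59 ± 0.13, and rises, 2 with all arrays, were 4 without Col 24 h replicate 2 and 1 without Col 24 h replicate 1 or with repeated quantile normalisation. Of 8 salicylate genes 3 rose and 3 fell, with the immune kinase BIK1 (+0.71 ± 0.09) and the glutaredoxin GRX480 (-0.74 ± 0.10) among those that held. Without Col room temperature replicate 1, and without Col 24 h replicate 2, BIK1 was the 1 rise left.

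Defensins of the PDF2 type, besides PDF2.1, changed in both directions. LCR69 (AT2G02100), bright already at room temperature, had 11.63 and 11.58 at room temperature and 13.93 and 13.82 after cold (+2.27 ± 0.07), and LCR68 had 11.49 and 11.44 at room temperature and 12.03 and 11.96 after cold (+0.53 ± 0.08). PDF2.5 (AT5G63660) went the other way with 8.06 and 8.02 at room temperature and 6.89 and 6.77 after cold (-1.21 ± 0.08). Of 13 such genes 4 rose and 1 fell, all of which held, and 6 lay in the background range in both groups. PDF2.1 (AT2G02120), LCR69 and LCR68 (AT2G02130) have nearby locus codes on chromosome 2, and cross-hybridisation among them was not tested. Genes of RALF-like peptides, which signal through receptor kinases in growth, gave 5 falls of 11 and 1 rise, RALFL22 (+0.23), which did not hold. For these counts and those of the defensins, the shares of all probe sets were 23.2% higher and 25.9% lower. RALFL34 (AT5G67070) had 10.98 and 11.08 at room temperature and 9.89 and 9.86 after cold. RALFL27 fell into the background range, at least 2.85-fold lower. The U-box ligase PUB19 (AT1G60190), a negative regulator of drought responses, rose from 6.74 and 6.76 to 7.85 and 8.12.

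Of 20 redox genes 8 fell and 2 rose, and all 10 calls held; the share called was near the 49.1% of all probe sets, with 25.9% lower and 23.2% higher. The methionine sulfoxide reductases MSRB5 (AT4G04830), with 10.86 and 10.84 at room temperature and 8.79 and 8.75 after cold (-2.08 ± 0.07), and MSRB9 (AT4G21850), with 9.62 and 9.62 at room temperature and 8.34 and 8.42 after cold (-1.24 ± 0.09), repair oxidised proteins. The monodehydroascorbate reductase ATMDAR2 (-1.32 ± 0.13), the ascorbate synthesis enzyme VTC4 (-1.19 ± 0.08) and the sulfiredoxin SRX (-0.99 ± 0.07) fell, while GME (AT5G28840), an earlier enzyme of ascorbate synthesis, rose from 10.91 and 10.94 to 12.02 and 11.95. Tau glutathione transferases fell in 7 of 11 cases, each of which held, with GSTU18 (AT1G10360) at -1.59 ± 0.09 and GSTU28 at -1.12 ± 0.08. GSTU25 (AT1G17180) rose from 9.85 and 9.90 to 11.74 and 11.73. Iron and zinc genes gave small calls in both directions, with the iron regulator PYE at +0.79 ± 0.12 and the related factors ILR3 (-0.42 ± 0.08), bHLH115 (-0.57 ± 0.09) and bHLH34 (-0.64 ± 0.09) lower.

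Large enzyme families were read through their symbols. Over all probe sets 23.2% were called higher and 25.9% lower. The falls in the UGT family and the rises in the BGLU and serine carboxypeptidase-like families were near those shares. Glycosyltransferases of the UGT family rose in 20 of 47 cases (16 held) and fell in 10 (9 held). Besides UGT78D3, the largest changes were the rises of UGT72B3 (AT1G01420, +1.74 ± 0.10) and UGT73C1 (AT2G36750, +1.48 ± 0.15) and the falls of UGT71C1 (AT2G29750, -2.33 ± 0.13) and UGT72E2 (AT5G66690, -1.56 ± 0.11). Beta-glucosidases of the BGLU family rose in 4 of 20 cases and fell in 10, led by BGLU25 (AT3G03640, +1.44 ± 0.08) and BGLU40. Among 23 cytochrome P450 genes there were 10 falls and 3 rises, of which 1 held, CYP71B29 (+0.57 ± 0.11). CYP71B24 fell into the background range, at least 2.67-fold lower. Among 29 serine carboxypeptidase-like genes there were 11 falls and 6 rises, from scpl26 (-1.20 ± 0.07) to scpl35 (+1.38 ± 0.07). Aldehyde dehydrogenases fell in 6 of 8 cases (4 held), with ALDH22A1 lowest (-0.96 ± 0.09). The tetraspanin TET8 (AT2G23810), a marker of extracellular vesicles, rose from 9.32 and 9.39 to 11.17 and 11.09, and TET10 fell (-1.07 ± 0.08). The subtilase SBT4.12 (-1.54 ± 0.13) and the actin-binding NET4B (-1.18 ± 0.11) fell.

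Called genes that changed at least 2-fold formed 4 runs of 3 neighbours on a chromosome. On chromosome 1 AT1G76580, AT1G76590 and AT1G76600 rose by 2.16, 3.01 and 1.33, and AT1G52050, AT1G52060 and AT1G52070 changed by -1.44, -1.59 and -1.79. The other two were AT2G29290 to AT2G29310, lower, and AT3G15440 to AT3G15460, higher. Neighbours can be duplicates with similar sequences, and cross-hybridisation was not tested. Where a gene had several probe sets (152 genes), these were called in opposite directions in 4.

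The Col response was set beside that of C24, another natural accession with 2 arrays at room temperature and 2 after 24 h at 4 °C, by testing the difference of both responses in the same fit. This difference was called for 39.5% of probe sets, 19.1% higher in Col and 20.4% lower. The leading genes were picked for their size in Col, so a larger change in Col is favoured by the choice and is given as a description. Over all probe sets 49.5% were called in C24, 24.1% higher and 25.4% lower. Among the 25 leading rises 17 were also called higher in C24 and 4 were called lower, and the median change was 3.47 in Col and 1.24 in C24. Among the 25 leading falls 13 were called lower in C24 and 3 higher, with medians of -2.85 and -0.84. XTH20 (C24 3.04) and EXPA8 (C24 -4.45) changed by amounts whose difference was not called (0.17 ± 0.16 and 0.18 ± 0.28).

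Levels at room temperature differed for many of these genes. COR27 stood at a mean of 10.93 in C24 at room temperature, where Col was in the background range, and at 10.73 after cold, against 10.97 in Col. AT5G62360 stood at 10.61 and 10.60 in C24, and AT4G33980 at 9.86 and 9.53. In C24 these 3 genes were bright before cold. At room temperature 13 of the 25 leading rises were at least 2-fold higher in C24 than in Col and 3 were lower, and after cold 2 were higher and 13 lower. Of the 25 leading falls 2 were at least 2-fold higher in C24 at room temperature and 15 lower, and after cold 5 were higher and 4 lower. These genes were picked by their levels in Col at room temperature and after cold. The choice itself favours such level differences, so the counts are given as a description. The share of all probe sets with such differences was not counted. DFR fell in Col but rose in C24, from 7.56 to 8.72. COR15B rose by 1.41 in C24 from 12.23, less than in Col by 2.13 ± 0.10 (adjusted p = 2.78e-08), and reached 13.64, close to its level in Col after cold. The expansin-like EXLA1 changed by 0.06 in C24, and EXPB1 by -0.07. On the C24 arrays at room temperature and 24 h, mean signals of the poly-A spike-in controls were 6.21 to 6.5, against 5.35 to 5.41 on the Col arrays, and the 3' minus 5' GAPDH signal was 0.374 to 0.864 against 0.0947 to 0.314. These control signals move with the ecotype, and their part in the differences was not tested.

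**Figure D5:**
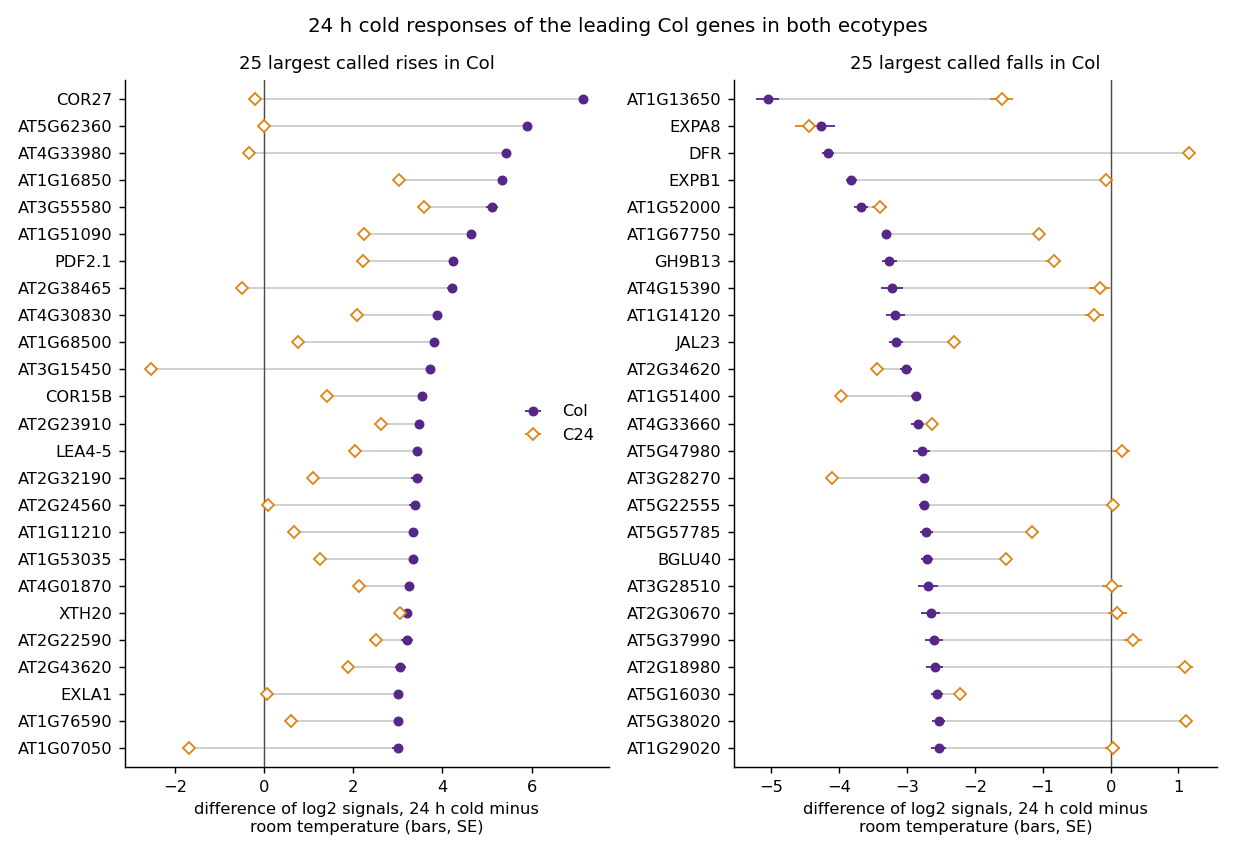
Differences of log2 signals, 24 h of cold minus room temperature (horizontal axis, bars are SE), for the 25 largest rises (left) and falls (right) in Col. Filled circles are Col and open diamonds are C24. The C24 symbols lie nearer to 0 than the Col symbols for most genes, on the other side of 0 for DFR, AT3G15450 and AT1G07050 among others, and beyond those of Col for 4 falls, AT1G51400, AT3G28270, AT2G34620 and EXPA8, of which the difference of EXPA8 was not called.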

How the data were processed

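RNA of Col and C24 plants was hybridised to Affymetrix ATH1 arrays, 10 in 5 groups of 2. The authors deposited log2 signals made with GCOS and RMA, per the submitters' processing notes, which give no versions; RMA pulls arrays to a common distribution, so changes are relative to the bulk of the transcripts. From these values limma 3.58.1 in R 4.3.3 fitted 5 group means on all 10 arrays, with empirical Bayes moderation and no filter, over 22746 probe sets after 64 controls were removed. Contrasts were Col 24 h minus room temperature, and the difference of that change from the same change in C24. The p-values were adjusted by the Benjamini-Hochberg method over all 22746, with a threshold of 0.05. On simulated data the fit recovered 95% of 200 probe sets changed by 1 (log2) with 6 false calls, and 59% of 200 changed by 0.5 with 5 false calls. There no other probe set changed, and each had the same spread in all groups. In the real data 49.1% of probe sets were called, so these numbers of false calls do not carry over to them. Arrays carry no read depth; their number limits the precision.

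Of the probe sets, 13513 name 1 gene, 503 name several and 8730 are unnamed here. The genes named first are the 25 largest called rises and 25 largest called falls with 1 gene whose arrays did not overlap between groups. To these come the 5 largest called differences from C24 each way among genes called in Col. Members and lists were chosen with earlier results of these data known. Of 553 genes in 25 lists drawn up first, 56 had such a probe set, and 8 lists had none and were not analysed here, so 48 groups and 24 families, assembled from annotation symbols after the files were read, carry the description. The marker checks use the leaf, root and pollen groups. Alternatives were repeated quantile normalisation, centring on medians, a replicate block, a trended robust prior, a filter on dim probe sets, fewer arrays in the fit and each array left out.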

Additional observations from a re-analysis of the deposited data

Results flagged for a closer look

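The 24 h response differed between Col and C24 by the interaction contrast in limma for the 10 genes below. Only named genes called in Col were ranked, so a change in Col comes from the choice. Listed are the 5 largest called differences in each direction. Each is the Col change minus the C24 change in log2 signal, with SEs between 0.0958 and 0.1475 and adjusted p-values between 3.86e-11 and 5.04e-10 (n = 2 arrays a group).

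COR27 differed by 7.35, AT5G62360 by 5.89 and AT4G33980 by 5.77. All 3 rose in Col, as described above, while in C24 they were bright before cold. AT3G15450 differed by 6.26: its signals in Col were 8.44 and 8.63 at room temperature and 12.16 and 12.37 after cold, and its C24 means were 11.64 at room temperature and 9.11 after cold. AT3G15630 differed by 5.61, with Col signals of 6.76 and 6.79 at room temperature and 8.48 and 8.56 after cold and C24 means of 9.83 and 5.96. These last genes moved in opposite directions in the ecotypes.

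In the other direction AT2G27420 differed by -5.35. It fell in Col from 6.55 and 6.73 to 4.21 and 4.21, in the background range and at least 4.37-fold lower, while its C24 means were 6.71 and 9.64. DFR differed by -5.33 and TBL26, a member of the wall acetylation family, by -5.02. TBL26 had 8.499 and 8.71 at room temperature and 6.33 and 6.21 after cold in Col and means of 6.80 and 9.48 in C24. AT1G22440 differed by -4.14, with 9.85 and 9.86 at room temperature and 8.92 and 8.87 after cold in Col and means of 5.21 and 8.38 in C24. AT4G30170 differed by -4.13, with 10.21 and 10.27 at room temperature and 8.67 and 8.76 after cold in Col and means of 5.08 and 7.68 in C24. All 5 were lower after cold in Col and higher after cold in C24. Probes on the array were designed on Col sequence, and hybridisation of C24 alleles was not tested.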

How the results depend on the processing

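All counts over the 22746 probe sets stayed within 1.5 times their value under each alternative run. The 11174 calls ranged from 8772 with dim probe sets left out, where fewer were tested, to 11553 with a trended robust prior, and from 9768 to 10113 with each Col array left out. Calls of at least 2-fold, 1906, ranged from 1621 to 1967, and from 1933 to 1967 with each Col array left out. The 8981 differences from C24 ranged from 7314 to 9461, and from 7796 to 8451 with each of 8 arrays left out. Centring arrays on their medians turned the balance of calls, to 5952 higher and 5415 lower. Replicate numbers did not pair the samples: same-numbered arrays of Col at room temperature and 24 h had deviations that correlated at 0.0188, and all pairs of groups lay between -0.115 and 0.119. With a replicate block 11142 probe sets were called, 1906 by at least 2-fold, and 8924 differed from C24. Of 911 probe sets of named genes, 8 lost their call and 5 gained one under the block. With 1 Col array left out, 61 to 75 lost it and 11 to 42 gained one, the lone array being assumed to vary like the other groups. None changed direction with a call. The plastid falls, 31, were 12 to 57 with a Col array left out, a check added after the data were seen.

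Each group had 2 arrays. Signals in the lower quartile of an array were not shown to be above background, so small changes there are uncertain. Symbols cover only part of each pathway: of 553 genes listed at first, 56 had a probe set naming 1 gene. Harvest time, planting and the share of tissues were not given, and their part in the results was not tested.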

Other observations

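Some groups were called in Col at about the share of all probe sets, 49.1%. Of 18 vesicle traffic genes 4 rose and 4 fell (4 and 2 held), all by less than 2-fold. Of 10 proton pump genes 3 rose and 2 fell (1 and 2 held). Of 3 stomatal genes STOMAGEN, a peptide that promotes stomata, fell by 0.55. Of 9 plant U-box ligases 3 rose and 2 fell, with PUB19 the only change of at least 2-fold.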
